A study of Homo sapiens with 10 samples.

Results

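Epithelial-mesenchymal transition (EMT) is the programme by which epithelial cells give up their junctions and take on a migratory, fibroblast-like state. It is driven by a small set of DNA-binding proteins, and 8 of them are described here: the zinc-finger repressors SNAI1 (Snail) and SNAI2 (Slug), the zinc-finger and homeodomain factors ZEB1 and ZEB2, the basic helix-loop-helix factors TWIST1 and TWIST2, the paired-type homeodomain factor PRRX1, and TCF4, an E protein that pairs with other basic helix-loop-helix factors. The genes were taken by symbol from 60168 annotated genes, and the estimated reads of all transcripts of a gene were summed. SNAIL and ZEB factors bind the E-box CAGGTG, which reads CACCTG on the other strand, in promoters of genes such as CDH1, which encodes E-cadherin, and recruit co-repressors there. ZEB1 and ZEB2 in turn are held down by the microRNAs of the miR-200 family and by miR-205, whose loci ZEB factors repress. SNAI2 is also known in normal breast as a factor of the basal epithelial layer, so that its expression alone does not mark EMT.

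Polyadenylated RNA was sequenced from MCF10A, a non-tumorigenic human mammary epithelial cell line, in 10 libraries. MCF10A-control cells (4 libraries, A to D) carried an empty vector, MCF10A-TRAM2 cells (4 libraries, A to D) a TRAM2 vector, and MCF10A-YAP5SA cells (2 libraries, A and B, labelled MCF10A-YAP) a vector for YAP5SA, an activated form of the transcriptional co-activator YAP. All cells were lentivirally transduced and antibiotic-selected, so that each group is 1 overexpression state of 1 cell line and the control carries an integrated vector too. Control A did not differ detectably from control C, nor control B from control D, beyond sampling noise (chi-square per degree of freedom of 1.08 and 1.09, p = 0.14 and 0.11, over 382 and 388 genes whose transcripts all had whole counts), while other control pairs gave 1.34 to 1.42, so each pair was counted as 1 sample. Over all genes, where reads shared between transcripts are estimated, these pairs did differ (1.23 and 1.22 per degree of freedom), by less than the other control pairs (1.42 to 1.49). Over 3704 genes with a whole summed count, control B against control D gave 1.05 in the chi-square test (p = 0.021). The fit with all 10 libraries kept separate is an alternative. Control 1 below is the sum of A with C, and control 2 that of B with D. The series' design text speaks of 3 biological replicates per condition, which matches neither the 4, 4 and 2 libraries nor the 2 merged controls, and the labels do not tie letters to separate cultures. The n and p-values then measure only the spread between these 8 samples, which may be technical. The deposited names carry a run number, which is 1 for libraries A and B of every group and 2 for C and D.

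The libraries held 8489854 to 16314438 estimated counts. TRAM2 itself stood at 28.4 and 28.9 CPM (counts scaled to library size) in control, at 390, 611, 249.9 and 460 CPM in MCF10A-TRAM2 A to D and at 242 and 247 CPM in MCF10A-YAP5SA. Because the TRAM2 libraries differed among themselves, its log2 fold change of 3.90 (standard error 0.45) over control had an adjusted p of 0.072 in edgeR's quasi-likelihood test. It was called in 6 of 16 other settings, with adjusted p values of 0.0022 in edgeR over 10 libraries, 0.042 without TRAM2 B, 0.029 without TRAM2 C, up to 0.75 without control 2, and 4.6e-26 in DESeq2, and log2 fold changes of 3.56 to 4.20. No MCF10A-TRAM2 library overlapped with the control samples. YAP1 was 187 CPM in both control samples and 337 and 342 CPM in MCF10A-YAP5SA (adjusted p = 4e-09), and ANKRD1, a classical YAP target, was 0 and 0.43 CPM in control against 414 and 412 CPM. Of 11 markers of basal-type mammary epithelium fixed for MCF10A, 11 had more than 3 counts in control, 11 in MCF10A-TRAM2 and 10 in MCF10A-YAP5SA, with summed levels of 6594 to 6612 CPM, 5833 to 7247 CPM and 5668 to 5690 CPM. The exception was TP63, a basal transcription factor, at 2.48 to 3.11 CPM in control and 0.08 to 0.15 CPM (3 counts) in MCF10A-YAP5SA. The sum hides changes in both directions. KRT5 was 1646 to 1653 CPM in control and 846 to 874 CPM in MCF10A-YAP5SA, and CDH3 197 to 207 and 39.6 to 42.2 CPM. ITGA6 and ITGB4 were also lower. EGFR was higher, at 694.5 to 702 CPM in control and 1090 to 1111 CPM in MCF10A-YAP5SA, as was KRT17, at 267 to 279 and 441.5 to 465 CPM. In these bulk libraries fewer cells expressing a gene and less RNA per cell cannot be told apart, which holds for every difference below.

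SNAI2 and TWIST1 were the most abundant members in every group on the scale that allows genes to be compared, TPM, which corrects for transcript length and was summed over the protein-coding transcripts of a gene. SNAI2 lay between 25.0 and 25.6 TPM in the 4 control libraries, between 28.2 and 37.03 TPM in MCF10A-TRAM2 and at 44.6 and 45.3 TPM in MCF10A-YAP5SA. TWIST1 followed with 11.6 to 12.7, 11.6 to 12.8, and 14.4 and 14.2 TPM. In control SNAI2 made up 58.3 to 61.3% and TWIST1 27.3 to 30.1% of the summed TPM of the 8 genes.

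The sum over the 8 genes was 41.7 to 43.2 TPM in control, 47.6 to 55.0 TPM in MCF10A-TRAM2, and 79.5 and 81.3 TPM in MCF10A-YAP5SA. The composition moved as well. ZEB1 held 1.03 to 1.76% of the sum in control and 12.6 to 13.4% in MCF10A-YAP5SA, ZEB2 3.13 to 5.63% against 9.37 to 11.0%, and TWIST1 fell back to 17.5 to 18.1%. The SNAI2 share was 55.8 to 56.1% there. The ZEB1 and ZEB2 shares rest partly on short coding entries with few reads, described below, so that CPM is the safer guide to size.

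**Figure D1:**
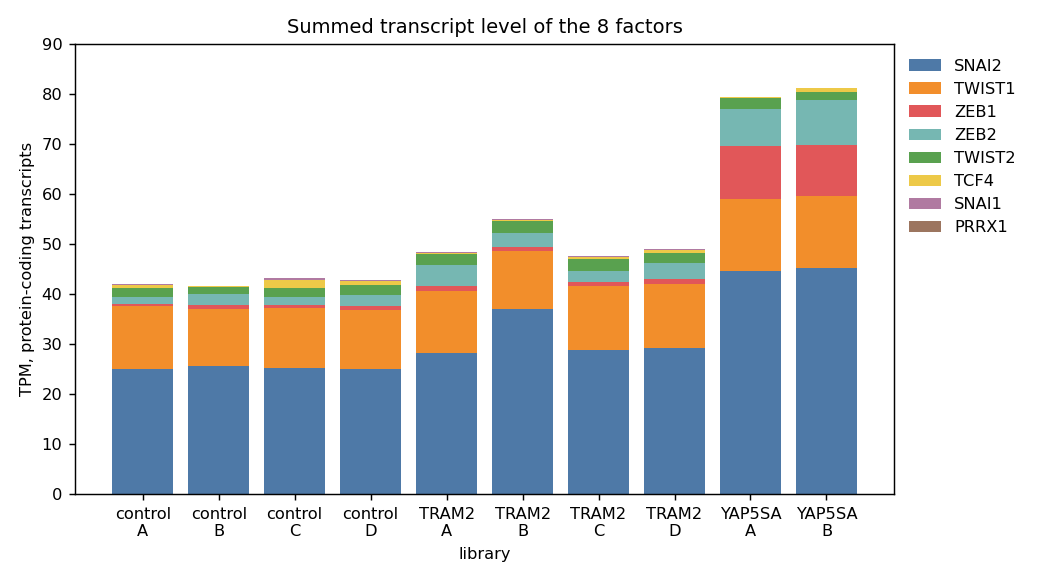
Stacked bars give the TPM of protein-coding transcripts of the 8 transcription factors (y axis) in each of the 10 libraries (x axis), before control libraries were summed. The bars of MCF10A-YAP5SA reach 79.5 and 81.3 TPM against 41.7 to 43.2 TPM in control, and the ZEB1 and ZEB2 layers are thickest there, at 12.6 to 13.4% and 9.37 to 11.0% of the sum. The ZEB1 and ZEB2 layers rest partly on short coding entries with few reads.

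A gene was counted as expressed when it reached 1 TPM over all its transcripts in every library of at least 1 group. SNAI2, TWIST1, TWIST2 and ZEB2 met this in every group. ZEB1 met it in MCF10A-YAP5SA, with 11.3 and 11.8 TPM, but not in control, where its 4 libraries lay at 0.80, 0.77, 1.03 and 1.03 TPM. TCF4, SNAI1 and PRRX1 met it in no group. Thus 5 of 8 members were expressed by this rule. At 0.5 TPM the number was 6, TCF4 being added, and at 2 TPM or with protein-coding transcripts only, a setting chosen after the data were seen, it stayed at 5.

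PRRX1, a mesenchymal homeodomain factor that is active in embryonic limb and connective tissue, was nearly without reads. Its only count in 10 libraries was a single read in control C. No PRRX1 read was found in the 4 MCF10A-TRAM2 or the 2 MCF10A-YAP5SA libraries, which allows a level of up to 0.050 and 0.121 CPM (3 counts over the group; counting error only). PRRX1 did not pass the filter on low counts, so that 7 of 8 members were tested, and nothing can be said about a change in it. The 7 that passed did so with 6 to 8418 counts per group.

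In MCF10A-YAP5SA, ZEB1 and ZEB2 had the greatest increases over control of the 7 members tested. ZEB1 had 70, 50, 53 and 42 counts in control A to D and 665 and 754 counts in MCF10A-YAP5SA A and B. On the depth-corrected scale ZEB1 was 5.63 and 4.96 CPM in the control samples and 55.9 and 58.4 CPM in MCF10A-YAP5SA. The lowest YAP5SA value was thus far above the highest control value, and the log2 fold change was 3.43 (standard error 0.14, 95% interval 3.11 to 3.74, adjusted p = 2.3e-10 in edgeR's quasi-likelihood test, about 10.7-fold). At the limit of 1 TPM it is the only member that was expressed by the rule in MCF10A-YAP5SA but not in control. Control libraries C and D were already just above that limit, at 1.03 TPM each. At 0.5 TPM ZEB1 met the rule in control as well, and at 2 TPM ZEB2 also met it in MCF10A-YAP5SA but not in control.

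ZEB2, the closest relative of ZEB1, had 108, 109, 107 and 91 counts in control A to D and 377 and 452 counts in MCF10A-YAP5SA. ZEB2 was 9.84 and 10.8 CPM in the control samples and 31.7 and 34.99 CPM in MCF10A-YAP5SA, again without overlap. Its log2 fold change was 1.70 (standard error 0.19, 95% interval 1.27 to 2.13, edgeR adjusted p = 4.5e-05).

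SNAI2 rose on top of an already high level. It stood at 116 and 118 CPM in the control samples and at 211 and 207 CPM in MCF10A-YAP5SA, a log2 fold change of 0.84 (standard error 0.10, 95% interval 0.616 to 1.059, edgeR adjusted p = 5.7e-05). The mean SNAI2 level of protein-coding transcripts went from 25.2 to 45.0 TPM, that of ZEB1 from 0.61 to 10.4 TPM. A coding entry of 887 bases held 38.1% of the ZEB1 TPM in MCF10A-YAP5SA, on 80.0 and 79.1 estimated reads. The ZEB1 gene total there was 665 and 754 counts, so that the TPM change leans on the division of reads between transcripts. The CPM change of about 10.7-fold does not.

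SNAI1, the other Snail factor, was near the limit of detection and lower in MCF10A-YAP5SA. Its counts were 14, 5, 10 and 7 in control A to D against 5 and 1 in MCF10A-YAP5SA A and B. The control samples were at 1.10 and 0.65 CPM and the YAP5SA libraries at 0.42 and 0.08 CPM, which do not overlap. The log2 fold change of −1.82 (standard error 0.64) passed the test with an edgeR adjusted p of 0.028, on 6 counts against 36, a ratio of 0.272 with a counting interval of 0.0935 to 0.651. The call was lost without control 1 (−1.37, edgeR adjusted p = 0.23), without YAP5SA B (−1.05, edgeR adjusted p = 0.27) and in DESeq2 (−1.83, adjusted p = 0.11). Without YAP5SA A the value was −3.37 (edgeR adjusted p = 0.016).

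TWIST1 and TWIST2 were not called. TWIST1, which specifies mesoderm in the embryo, was 42.4 and 43.3 CPM in control and 51.6 CPM in both YAP5SA libraries. All YAP5SA values were above all control values and the edgeR adjusted p was 0.0050, but the log2 fold change of 0.27 (95% interval 0.12 to 0.42) stayed under the limit of 0.5 set for a call. TWIST2, its close paralog, was 4.26 and 3.88 CPM in control and 5.21 and 3.72 CPM in MCF10A-YAP5SA, so the groups overlapped. Its log2 fold change was 0.13 with an interval of −0.32 to 0.58, which leaves room for a change of up to that size in either direction.

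TCF4, the E protein, had the opposite direction to ZEB1 and ZEB2. It was 4.94 and 4.26 CPM in the control samples and 2.69 and 2.25 CPM in MCF10A-YAP5SA, a log2 fold change of −0.90 (standard error 0.26, 95% interval −1.46 to −0.34, edgeR adjusted p = 0.010). The call rests on 61 counts in MCF10A-YAP5SA and 187 in control. It was lost without control 1 (−0.78, edgeR adjusted p = 0.079) and without YAP5SA B (−0.77, edgeR adjusted p = 0.099).

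Of the 7 members tested, 3 were therefore called higher (ZEB1, ZEB2, SNAI2), 2 lower (SNAI1, TCF4) and 2 not called in MCF10A-YAP5SA against control, a call being an adjusted p below 0.05 together with a log2 fold change beyond 0.5 in either direction. Among all 15768 genes tested, 15.3% were called higher and 14.1% lower in this comparison. The median log2 fold change of the members was 0.27 against −0.01 for all genes. The 3 higher calls were made in each of the 15 alternative settings tried, whereas the number of lower calls ranged from 0 to 2.

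**Figure D2:**
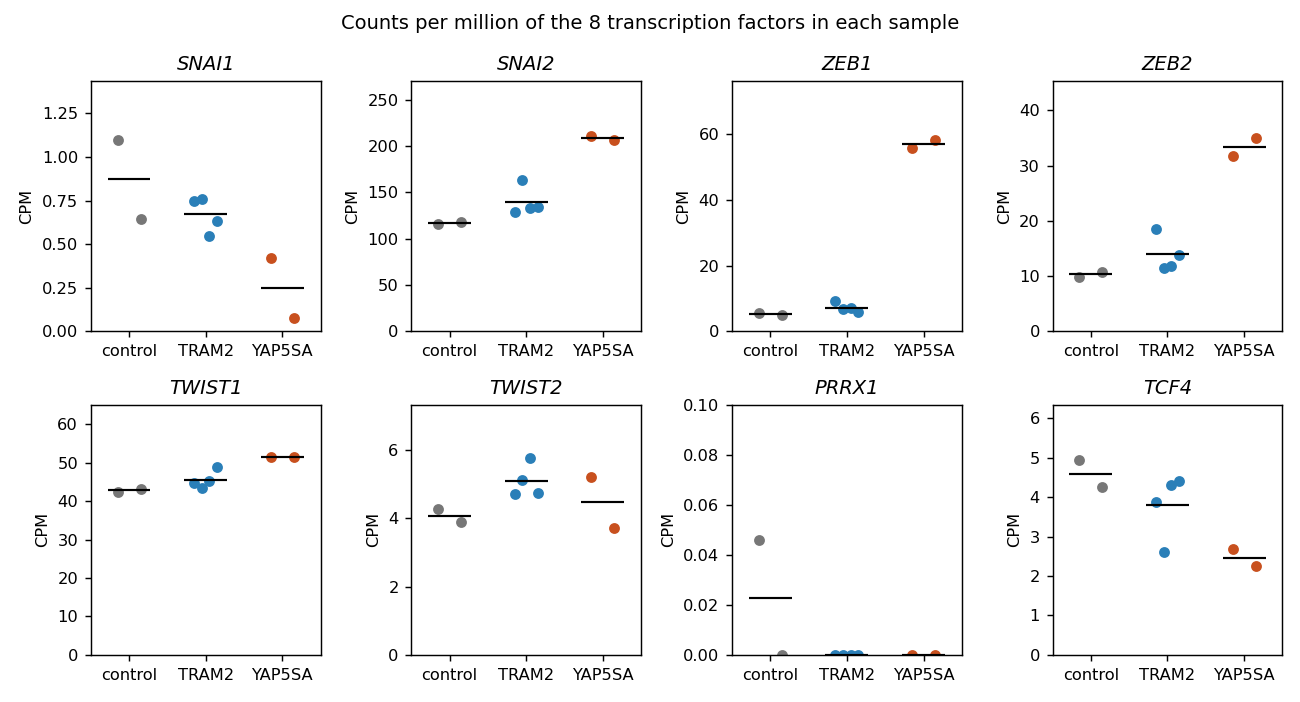
Each panel shows 1 transcription factor, with CPM on a linear y axis that starts at 0 and differs between panels, a point for each of the 8 samples and a line at the group mean (2 control samples, 4 MCF10A-TRAM2, 2 MCF10A-YAP5SA). The YAP5SA points lie above all others for SNAI2, ZEB1, ZEB2 and TWIST1 and below all others for SNAI1, and in the TRAM2 group library B stands out for SNAI2 at 164 CPM.

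MCF10A-TRAM2 cells were compared with control to ask whether raised TRAM2 alone moved these factors. In this comparison 0 of 7 members were called by edgeR and 0 of the 2 with an adjusted p by DESeq2. Among all genes 0.0317% were called higher (5 genes) and 0.0254% lower (4 genes), and with a background this low a count of 0 says nothing particular about the members. DESeq2 gave an adjusted p to 2 of the 7 only, SNAI2 (0.086) and TWIST1 (0.73); SNAI1, ZEB1, ZEB2, TWIST2 and TCF4 received none. At an unadjusted p under 0.05 there were 3 members, SNAI2, ZEB1 and ZEB2, each of them higher. The share of all genes under this unadjusted threshold was not worked out, so that the 3 members cannot be set against a background.

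SNAI2 was 129, 164, 133 and 134 CPM in MCF10A-TRAM2 A to D, each above both control samples at 116 and 118 CPM. The log2 fold change was 0.26 (standard error 0.09, 95% interval 0.06 to 0.45, edgeR adjusted p = 0.27), an interval that ends below the limit of 0.5. Without TRAM2 B, the highest library, it was 0.17 with an edgeR adjusted p of 0.040, and with no filter on low counts it was 0.24 with 0.0029. In neither case did the size of the change reach the limit for a call.

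ZEB1 was 9.24, 6.76, 7.14 and 5.74 CPM in MCF10A-TRAM2 A to D against 5.63 and 4.96 CPM in control. The lowest TRAM2 library, D, was only just above control 1. The log2 fold change was 0.43 (standard error 0.16, 95% interval 0.09 to 0.77, edgeR adjusted p = 0.27).

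ZEB2 was 18.6, 11.5, 11.8 and 13.8 CPM in MCF10A-TRAM2 A to D against 9.84 and 10.8 CPM in control. Library A stood above the others, and without it the log2 fold change of 0.42 (standard error 0.18, edgeR adjusted p = 0.38) became 0.26. Over the alternative settings the ZEB2 change ran from 0.26 to 0.59 and its lowest edgeR adjusted p was 0.014. ZEB2 was called in none of them. For ZEB1 and ZEB2 the intervals reach 0.77 and 0.83, so that a change past the limit was not detectable in these samples rather than shown to be absent.

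Of the other members TWIST1 moved least, and the changes of TWIST2, TCF4 and SNAI1 rested on fewer counts than that of ZEB1. TWIST1 was 44.8, 43.6, 45.3 and 48.8 CPM, a log2 fold change of 0.09 with an interval of −0.04 to 0.22. TWIST2 was 4.69, 5.11, 5.75 and 4.73 CPM, TCF4 3.87, 2.62, 4.30 and 4.42 CPM, and SNAI1 0.74, 0.76, 0.55 and 0.63 CPM. TCF4 and SNAI1 overlapped with control, and their log2 fold changes were −0.27 (−0.71 to 0.16) and −0.40 (−1.33 to 0.54). TWIST2 lay above both control samples (4.26 and 3.88 CPM) in every MCF10A-TRAM2 library. Its log2 fold change was 0.32 (−0.06 to 0.69, edgeR adjusted p = 0.48). The intervals of TWIST2, TCF4 and SNAI1 also pass 0.5 in size, so that a change past the limit was not shown to be absent.

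Between the runs of the TRAM2 group, libraries A and B against C and D, SNAI2 and ZEB2 overlapped. SNAI2 was 129 and 164 CPM in A and B and 133 and 134 CPM in C and D, and ZEB2 was 18.6 and 11.5 against 11.8 and 13.8 CPM. TWIST1 was lower in A and B (44.8 and 43.6 CPM) than in C and D (45.3 and 48.8 CPM), as was TCF4 (3.87 and 2.62 against 4.30 and 4.42 CPM), while SNAI1 was higher (0.74 and 0.76 against 0.55 and 0.63 CPM). With 2 libraries a run, this was not tested. Within the first run alone (A and B of each group) the log2 fold changes over control were 0.33 for SNAI2, 0.54 for ZEB1 and 0.59 for ZEB2, and within the second run alone 0.19, 0.34 and 0.26, with edgeR adjusted p values of 0.31, 0.27, 0.40, 0.024, 0.41 and 0.33 in that order.

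MCF10A-YAP5SA was also set directly against MCF10A-TRAM2. Here 3 of 7 members were called higher (ZEB1, ZEB2, SNAI2) and 1 lower (TCF4), beside 14.9% of all genes higher and 14.6% lower. ZEB1 differed by 2.99 on the log2 scale (standard error 0.12, edgeR adjusted p = 6.8e-11), ZEB2 by 1.27 (0.16, edgeR adjusted p = 9.0e-05) and SNAI2 by 0.58 (0.08, edgeR adjusted p = 0.00023). The interval for SNAI2 ran from 0.39 to 0.77 and includes the limit of 0.5.

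TCF4 was lower than in MCF10A-TRAM2 by a log2 fold change of −0.63 (standard error 0.24, edgeR adjusted p = 0.043), although TRAM2 B, at 2.62 CPM, lay between the YAP5SA libraries at 2.25 and 2.69 CPM. This call was lost in 11 of 15 alternatives, among them leaving out control 1, control 2, TRAM2 A, TRAM2 C, TRAM2 D, YAP5SA A or YAP5SA B, with log2 fold changes of −0.76 to −0.50 and edgeR adjusted p values from 0.058 to 0.26 in those fits. SNAI1 differed by −1.43 (standard error 0.61, edgeR adjusted p = 0.067) and was called only without YAP5SA A (−2.98, edgeR adjusted p = 0.028), where the remaining YAP5SA library holds 1 SNAI1 count. TWIST1 differed by 0.18 (0.05 to 0.31) and TWIST2 by −0.19 (−0.59 to 0.21).

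**Figure D3:**
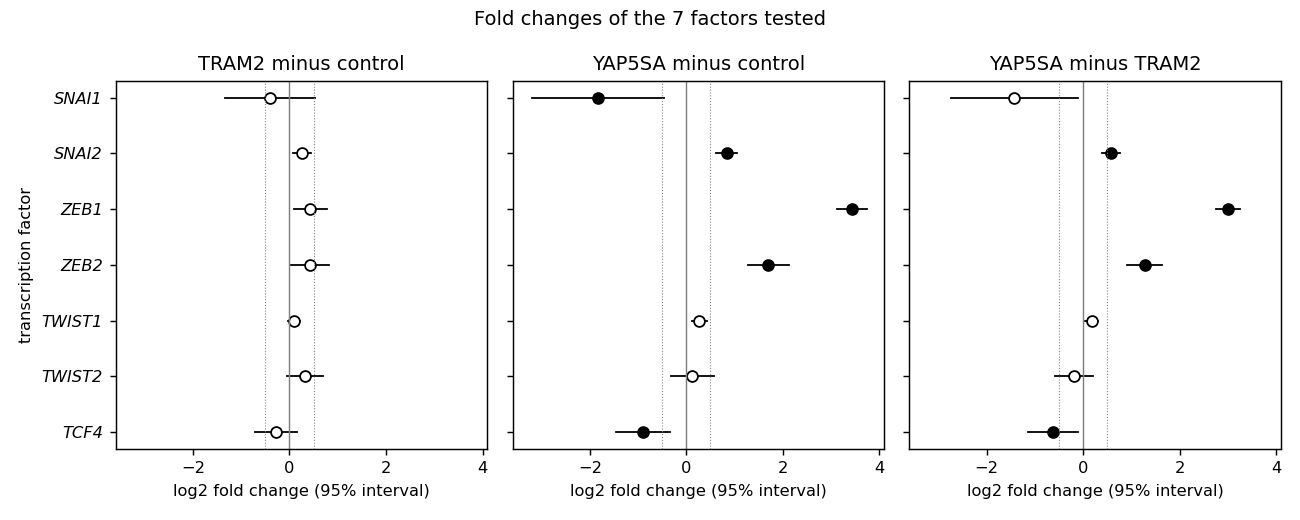
Points give the log2 fold change (x axis) of each of the 7 factors tested (y axis) in 3 comparisons, with 95% intervals, filled where called; dotted lines mark the limit of 0.5 in either direction. ZEB1 lies at 3.43 and ZEB2 at 1.70 against control in MCF10A-YAP5SA, while all 7 points of the TRAM2 comparison are open.

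The reads of several members were spread over transcripts by estimation, which affects TPM more than gene counts. SNAI2-201 carried 94.1 to 95.8% of the SNAI2 TPM in every group, and SNAI1 was a single transcript. TWIST1-201, the coding transcript, made up 61.4% of the TWIST1 TPM in control, 54.9% in MCF10A-TRAM2 and 62.4% in MCF10A-YAP5SA, the remainder being mostly TWIST1-202, which is annotated for nonsense-mediated decay. TWIST2 was shared between TWIST2-201 and TWIST2-202 in similar parts (49.7% and 50.3% in control).

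The ZEB1 gain in MCF10A-YAP5SA sat mostly in 2 coding transcripts, which held 38.1% and 39.5% of its TPM. The entry of 3217 bases was at 4.13 and 4.99 TPM and that of 887 bases at 4.58 and 4.21 TPM, against 0 to 0.55 TPM for either in every control library. By estimated reads the former held 335.5 and 436 and the latter 80.0 and 79.1. For ZEB2, a coding entry of 709 bases reached 3.30 and 4.40 TPM and one of 4012 bases 2.35 and 2.36 TPM, against at most 1.10 and 0.98 TPM in control. The ZEB2 entry of 709 bases rested on 41.6 and 59.6 estimated reads, and that of 4012 bases on 242 and 261. Short coding entries thus weigh more in TPM than in reads. Very short entries distorted single libraries. A non-coding ZEB2 entry of 101 bases was listed at 7.45 TPM from 1 read in TRAM2 A and at 0 in all other libraries, and the gene total there was 12.5 TPM. A non-coding TCF4 entry of 142 bases was listed at 5.09 TPM in TRAM2 B alone, and TCF4 there totalled 7.18 TPM. With protein-coding transcripts only, the same libraries were at 4.25 TPM for ZEB2 and 0.27 TPM for TCF4.

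The build behind the deposited tables is not stated. By their place in the GENCODE v44 annotation on GRCh37 the 8 genes lie on 7 chromosomes. ZEB1 spans 10:31607424-31818742 on the plus strand and ZEB2 2:145121931-145278624 on the minus strand. SNAI1 lies at 20:48599517-48605423, SNAI2 at 8:49830157-49834299, TWIST1 at 7:19060614-19157259, TWIST2 at 2:239756673-239832230, PRRX1 at 1:170631869-170708562 and TCF4 at 18:52889416-53332018. Their identifiers in the deposited tables match this annotation for all 8 genes without the version number.

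Antisense genes and a pseudogene of the members were checked because their reads could mingle with those of the members. ZEB1-AS1 starts at 10:31495207 and ends at 31609376, so that it overlaps the 5′ end of ZEB1 on the opposite strand. ZEB1-AS1 had 9 to 11 counts in control libraries and 17 and 18 in MCF10A-YAP5SA (log2 fold change 0.54, standard error 0.36, edgeR adjusted p = 0.23), which is small beside the 665 and 754 counts of ZEB1. ZEB2-AS1 had 0 to 2 counts in every library, and TCF4-AS1, TCF4-AS2 and the pseudogene SNAI1P1 had none. The paper states that its RNA libraries were strand-specific, but whether the quantification used strand is not stated in the sources. It is therefore not known whether reads of ZEB1 and its antisense gene were kept apart where they overlap.

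The microRNAs that hold ZEB1 and ZEB2 down were not measured, since polyadenylated RNA libraries carry only their host transcripts. Their mature sequences (RefSeq, GRCh38.p14) are printed 5′ to 3′ because they define which members carry matching sites, with the seed, bases 2 to 8, in capitals.
hsa-miR-200b-3p: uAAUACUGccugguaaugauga
hsa-miR-200c-3p: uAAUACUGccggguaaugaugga
hsa-miR-429: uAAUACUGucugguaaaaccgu
hsa-miR-200a-3p: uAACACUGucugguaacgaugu
hsa-miR-141-3p: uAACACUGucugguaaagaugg
hsa-miR-205-5p: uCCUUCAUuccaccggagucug
The first 3 share the seed AAUACUG and the next 2 the seed AACACUG, which differ in a single base, while miR-205-5p has a seed of its own.

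Sites complementary to these seeds were searched on the sense strand of the longest protein-coding transcript of each member in that annotation. In ZEB1 (ZEB1-204, 6250 bases) 6 sites matched the seed AAUACUG and all 6 lay after the stop codon, and 7 sites matched AACACUG, 3 of them after the stop codon. In ZEB2 (ZEB2-235, 9583 bases) 6 sites matched AAUACUG, 5 after the stop codon, and 7 matched AACACUG, 4 after the stop codon. The miR-205-5p seed had 2 matches in ZEB1, 1 of them after the stop codon. It had 2 matches in ZEB2 and 1 in TCF4, with 0 after the stop codon in either gene. SNAI1, TWIST1 and PRRX1 held no match to any of the 3 seeds in their transcripts, SNAI2 held 1 match to AAUACUG after its stop codon, TWIST2 held 1 match to AACACUG and 1 to the miR-205-5p seed, and TCF4 held 1 and 2 matches to the miR-200 seeds after its stop codon. Transcript length differs between these genes from 1176 to 9583 bases, and longer transcripts have more room for a match. The sites below, from ZEB1 and ZEB2 in that order, are shown with the seed match in capitals and are written as DNA.
ZEB1 from base 4070 of the transcript: attgttttatcttatCAGTATTatcactct
ZEB1 from base 4944: ctgatttttacctatCAGTATTattttatt
ZEB2 from base 4605: cgcactaccatacatCAGTATTtttattat
ZEB2 from base 4668: cgcactacaatgcatCAGTATTatgattcc
The members with the most matches, ZEB1 and ZEB2, were also those with the greatest increases in MCF10A-YAP5SA, a description over 2 genes. TCF4, called lower there, held 2 matches to each miR-200 seed in its whole transcript. The ZEB1 transcript searched was not among the entries of 3217 and 887 bases that held most ZEB1 TPM in MCF10A-YAP5SA. Nor was the ZEB2 transcript among the entries of 709 and 4012 bases named above. Whether those entries hold the sites was not tested.

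The host transcripts examined, that of miR-200c with miR-141 and that of miR-205, moved in opposite directions. No host transcript of miR-200a, miR-200b or miR-429 was looked at. MIR200CHG, the host of miR-200c and miR-141 (12:7072389-7073610, GRCh37), had 19, 13, 18 and 11 counts in control A to D, 27, 26, 17 and 33 counts in MCF10A-TRAM2 A to D, and 8 and 7 counts in MCF10A-YAP5SA. In the YAP5SA libraries it was 0.67 and 0.54 CPM against 1.69 and 1.29 CPM in control, a log2 fold change of −1.30 (standard error 0.44, edgeR adjusted p = 0.024) that was called in 11 of 15 alternatives and not by DESeq2 (adjusted p = 0.087). Its edgeR adjusted p was 0.14 without control 1, 0.072 without YAP5SA A and 0.14 without YAP5SA B. MIR205HG, the host of miR-205 (1:209602162-209606193, GRCh37), was far more abundant and higher. It was 77.9 and 73.1 CPM in control, 85.6, 92.0, 88.0 and 86.2 CPM in MCF10A-TRAM2 and 109.9 and 107 CPM in MCF10A-YAP5SA (log2 fold change 0.52, standard error 0.06, edgeR adjusted p = 3.4e-06); it was called in 13 of 15 alternatives, the change being 0.48 without control 2 and 0.475 with no filter on low counts, both under the limit. In MCF10A-TRAM2 neither passed the test (MIR205HG 0.22, edgeR adjusted p = 0.10; MIR200CHG 0.20, edgeR adjusted p = 0.85). A host transcript need not follow its mature microRNA, and this was not tested.

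Promoter windows of 300 bases, from 250 bases before to 50 after a start (RefSeq, GRCh38.p14), were searched on both strands for the E-box CAGGTG or CACCTG and for the core site of the TEAD factors, the DNA-binding partners of YAP, GGAATG or CATTCC. The E-box occurred in 20.6% and the TEAD core in 14% of 35116 windows, and any E-box CANNTG, which includes the former, in 68.7%. The windows shown were chosen after their matches were seen. MIR200CHG, called lower in MCF10A-YAP5SA, held 1 CACCTG, and the tight-junction gene CLDN7, named below, held 5 E-box matches in 1 of its 2 windows. EHF, also called lower, held none in its 2 windows, and neither did MIR205HG in its single window. Of the 7 windows of ZEB1, 1 held the TEAD core and 2 held the E-box, and the windows of ZEB2, TWIST2 and PRRX1 held neither. Of 10 windows of TCF4, 3 held the TEAD core and 0 the E-box CAGGTG or CACCTG. Of the other genes searched, CRB3 and ELF3 held this E-box, and CDH2, GATA3 and VIM did not. No window of SNAI1, SNAI2, TWIST1, CDH1 or EPCAM was searched. Matches are in capitals below.
MIR200CHG, chr12:6962995-6963294, plus strand: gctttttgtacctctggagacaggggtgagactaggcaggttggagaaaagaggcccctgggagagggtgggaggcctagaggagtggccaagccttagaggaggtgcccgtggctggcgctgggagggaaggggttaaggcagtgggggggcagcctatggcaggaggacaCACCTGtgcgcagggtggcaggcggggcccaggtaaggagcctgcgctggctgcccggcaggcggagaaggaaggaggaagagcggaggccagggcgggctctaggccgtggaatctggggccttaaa
CLDN7, chr17:7262429-7262728, minus strand: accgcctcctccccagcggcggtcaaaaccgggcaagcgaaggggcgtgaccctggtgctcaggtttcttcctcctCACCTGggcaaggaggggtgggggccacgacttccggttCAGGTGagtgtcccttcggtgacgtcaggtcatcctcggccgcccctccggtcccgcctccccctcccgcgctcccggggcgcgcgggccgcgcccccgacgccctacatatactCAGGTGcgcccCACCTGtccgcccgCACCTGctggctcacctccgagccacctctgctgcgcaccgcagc
ZEB1, chr10:31318167-31318466, plus strand: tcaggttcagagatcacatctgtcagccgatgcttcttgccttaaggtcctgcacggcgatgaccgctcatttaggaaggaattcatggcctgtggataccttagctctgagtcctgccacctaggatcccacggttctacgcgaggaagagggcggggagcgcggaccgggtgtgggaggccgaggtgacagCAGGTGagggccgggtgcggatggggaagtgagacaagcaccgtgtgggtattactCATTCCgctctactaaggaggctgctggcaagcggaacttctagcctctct
A match of these letters is a description of the window and does not show binding.

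Genes known to be repressed by SNAIL, ZEB or TWIST factors were mostly lower in MCF10A-YAP5SA. Of 24 tested, 19 were called lower, 2 higher and 3 were not called, with a median log2 fold change of −1.81 against −0.01 over all genes. Among all genes tested, 14.1% were called lower and 15.3% higher. CDH1 was 97.5 ± 6.1 CPM (SD, n = 2) in MCF10A-YAP5SA and 383 ± 11 CPM (n = 2) in control, a log2 fold change of −1.97 (edgeR adjusted p = 2.2e-11). CDH3 (P-cadherin) fell by 2.31 on the log2 scale, CLDN7 by 5.14 and ST14, which encodes the membrane protease matriptase, by 3.19. The calls in the other direction were the simple keratins KRT8 and KRT18, at 0.96 and 0.60, named after their values were seen. TJP3, a junction scaffold, had 0 counts in MCF10A-YAP5SA and 74 in control and was at least 15.2-fold lower (3 counts over the group). In MCF10A-TRAM2 none of the 24 was called by edgeR, with CDH1 at 408 ± 25 CPM (n = 4) and a log2 fold change of 0.09.

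Epithelial regulators that oppose the members followed the same pattern. Of 12 tested, 11 were called lower in MCF10A-YAP5SA and 1 higher, with a median of −2.23, beside 14.1% of all genes lower and 15.3% higher. ESRP1, a splicing factor that maintains epithelial isoforms and is itself repressed by ZEB1, fell from 172 to 31.9 CPM (−2.43, standard error 0.07). The ETS factors ELF3 and EHF had log2 fold changes of −4.59 and −5.71. The gene called higher was GATA3, a luminal regulator, from 19.8 to 79.5 CPM (2.01, standard error 0.08). In MCF10A-TRAM2 ESRP1 was 176 CPM and ELF3 46.0 CPM, and 0 of the 12 were called.

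Genes of the mesenchymal state did not move together. Of 12 tested, 6 were called higher and 5 lower in MCF10A-YAP5SA, beside 15.3% of all genes higher and 14.1% lower. CDH2 (N-cadherin) rose from 0.34 to 82.2 CPM, a log2 fold change of 7.86 (standard error 0.19), and TAGLN, a smooth-muscle actin-binding protein, from 2.16 to 153 CPM (6.15, standard error 0.16). Against these, the matrix glycoprotein TNC went from 48.1 to 1.09 CPM (−5.46) and the gelatinase MMP2 from 7.75 to 0.24 CPM (−4.96). VIM (vimentin) and EPCAM, an epithelial surface protein, are named here as usual EMT markers and not by the rule for named genes. VIM was 10.5 and 11.9 CPM in control and 528 and 547 CPM in MCF10A-YAP5SA (5.59, standard error 0.25), and EPCAM 163 and 159 against 25.1 and 22.1 CPM (−2.77, standard error 0.16). In MCF10A-TRAM2 the list's median was 0.31 and none of the 12 was called.

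Co-repressor genes were mostly not called, beside 15.3% of all genes called higher and 14.1% called lower in MCF10A-YAP5SA. Of 24 co-repressor genes 2 were called higher, 1 lower and 21 not called in MCF10A-YAP5SA, with a median log2 fold change of −0.02. The LIM proteins AJUBA and WTIP, which bridge SNAIL factors to their effectors, rose by 1.60 (standard error 0.07) and 2.14 (standard error 0.11), and the histone demethylase KDM1A, a SNAI1 partner, fell by 0.63 (standard error 0.06) on the log2 scale. Of the E proteins and their ID inhibitors, 2 of 5 were called, both lower: ID1 from 77.0 to 12.9 CPM (−2.57, standard error 0.09) and ID2 from 1.78 to 0.71 CPM (−1.30, standard error 0.48), which was called in 11 of 15 alternatives and not by DESeq2 (adjusted p = 0.097). For ID2 the edgeR adjusted p was 0.105 without control 1 and 0.12 without control 2, and the log2 fold change was −0.605 without YAP5SA A (edgeR adjusted p = 0.29) and −2.78 without YAP5SA B (edgeR adjusted p = 0.0027). ID proteins block basic helix-loop-helix factors such as TWIST1 and TCF4.

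Enzymes that set the stability of SNAI1, SNAI2, TWIST1 or ZEB proteins act after the transcript, so that RNA levels of the members do not report on them. Of 23 tested, 4 were called higher, 0 lower and 19 not called, beside 15.3% of all genes called higher, a share near that of the list. LOXL2, a lysyl-oxidase family enzyme known to stabilise SNAI1, rose from 69.9 to 398 CPM (2.51, standard error 0.08), and the kinase PRKD1 rose by 1.65 (standard error 0.18). The ubiquitin-ligase components FBXL5 and BTRC rose by 0.86 (standard error 0.07) and 0.60 (standard error 0.11).

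Upstream inducers and other EMT-associated factors were divided, as were all genes tested, of which 15.3% were called higher and 14.1% lower in MCF10A-YAP5SA. Of 24 inducers, 6 were called higher and 5 lower, with TGFB2 rising from 54.8 to 224 CPM (2.03, standard error 0.06) and TEAD1 from 94.7 to 358 CPM (1.92, standard error 0.06), and with the Notch ligand JAG1 falling by 3.80 and WWTR1, the YAP paralog TAZ, by 1.14. Of 18 other EMT-associated transcription factors, 5 were called higher and 4 lower, with RUNX2 rising by 3.77 (2.55 to 34.8 CPM) and NR2F2 by 1.77, and with SOX4 and SOX9 falling by 1.74 and 0.59. In MCF10A-TRAM2 none of the genes in these lists, nor in the co-repressor, E protein or stability lists, was called by edgeR.

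**Figure D4:**
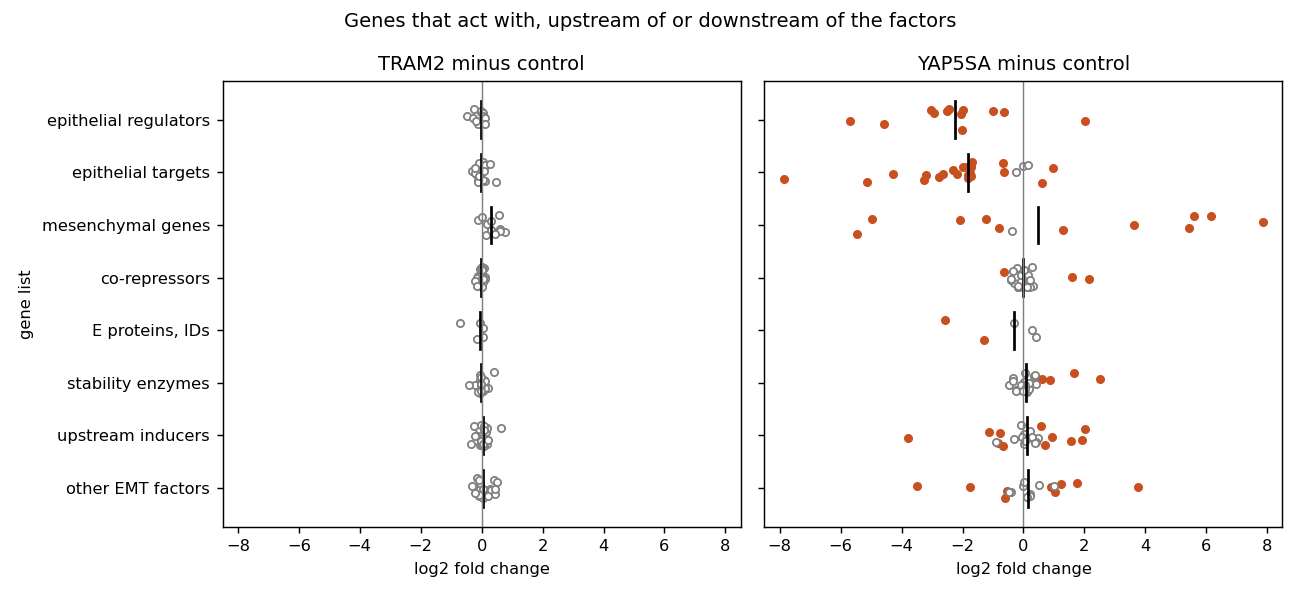
Each point is 1 tested gene of the list named on the y axis, placed by its log2 fold change over control (x axis) in MCF10A-TRAM2 (left) and MCF10A-YAP5SA (right), filled where called, with a bar at the list median; the leftmost target gene, TJP3, had 0 counts in MCF10A-YAP5SA and its position depends on the prior count. No point is filled on the left, and on the right the medians of the epithelial lists lie at −2.23 and −1.81.

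Genes with the most similar profile to each member were sought among 11837 protein-coding genes with a mean of at least 1 CPM, by the Euclidean distance of log2 CPM centred on each gene's mean over the 8 samples. For ZEB1 the nearest was BNC2, a zinc-finger protein (distance 0.148; 0.62 CPM in control, 0.96 in MCF10A-TRAM2, 10.2 in MCF10A-YAP5SA), followed by ARHGAP22 (0.365) and ILDR2 (0.420). For ZEB2 they were TVP23C-CDRT4 (0.418), PLXND1 (0.467) and WIPF1 (0.501). SNAI2 was nearest to SEMA3E (0.138), FOXC2 (0.155) and SIL1 (0.156), and TWIST1 to NAPA, NACC2 and MAN1B1 (0.0902 to 0.0917). SNAI1 lay nearest to HIST2H2BF (0.311), CTC1 and ZNF488, TCF4 to CLN3 (0.250), IFI35 and B3GNTL1, and TWIST2 to ZNF221 (0.233), ADCK2 and U2AF1L4.

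Markers of other cell types were counted because some of the members are also expressed in cells such as fibroblasts or leukocytes. Of 11 fibroblast markers, 6 had more than 3 counts in control, 4 in MCF10A-TRAM2 and 6 in MCF10A-YAP5SA, and their summed level was 91.4 to 94.3, 92.0 to 105 and 272 to 282 CPM. In MCF10A-YAP5SA nearly all of this was POSTN (178 and 184 CPM) and FAP (91.7 and 96.1 CPM), which were 17.6 to 18.6 and 69.1 to 72.5 CPM in control, and the other markers were at or below 0.93 CPM. Among these COL1A1 went from 132 counts in control to 19, COL1A2 from 5 to 0 and DPT from 6 to 0, whereas DCN went from 2 to 9, COL3A1 from 0 to 4, and PDGFRA and LUM from 0 to 1 each. PDGFRB had 15 and 7 counts, and THY1 had 0 in every group. Endothelial markers summed to 2.94 CPM and leukocyte markers to 1.01 to 1.16 CPM in MCF10A-YAP5SA, below control (9.70 to 10.6 and 12.4 to 13.2 CPM). Of 6 markers of lentiviral packaging cells only HOXA13 had counts, at up to 0.39 CPM. Luminal mammary markers summed to 1537 to 1602 CPM in control and 2811 to 2870 CPM in MCF10A-YAP5SA, nearly all of it KRT8 and KRT18. GATA3 was also higher, whereas FOXA1 went from 11.3 to 11.8 down to 1.47 to 1.51 CPM, KRT19 from 3.99 to 4.12 down to 0.08 to 0.34 CPM and ESR1 from 5.49 to 5.55 down to 2.19 to 3.25 CPM, and PGR had no counts. The part of these markers in the member results was not tested.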

How the data were processed

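The authors trimmed reads with cutadapt and quantified them against annotated transcripts with Salmon; no source used here gives versions, index or genome build. The deposited values are estimated counts (NumReads) and TPM per transcript. Estimated counts were summed per gene and rounded; CPM uses TMM-corrected totals. Controls A and C, and B and D, were summed, which left 8 samples, the shallowest with 12477031 estimated counts.

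R 4.3.3 with edgeR 4.0.16 was used: TMM, filterByExpr, glmQLFit and glmQLFTest over all 3 groups, Benjamini-Hochberg adjustment over 15768 genes, calls at adjusted p under 0.05 and absolute log2 fold change over 0.5. DESeq2 1.42.0 and the settings in the closing section were alternatives. The script was tested on simulated data. Likeness used log2(CPM + 0.5) at a mean of at least 1 CPM. Count intervals cover counting error only.

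The members and lists were chosen with earlier results of these data known. Named genes were all members, their antisense and host genes, of each list up to 4 called genes with the smallest adjusted p (MCF10A-YAP5SA against control), vector checks and the 3 nearest profiles. Replicate letters did not pair libraries (correlations of deviations −0.031 to 0.035).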

Additional observations from a re-analysis of the deposited data

Results flagged for a closer look

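In the TRAM2 group SNAI2 was 163.7 CPM in library B, while the other 3 libraries lay between 129 and 134 CPM. The gap to the nearest library was 0.846 of the group's range, above Dixon's 95% limit of 0.829 for 4 samples. The same library was far from the others on the TPM scale, at 38.37 TPM over all SNAI2 transcripts. That library also has the highest TRAM2 level, 611 CPM against 249.9 to 460 CPM; its part in the SNAI2 value was not tested. ZEB2 was 12.46 TPM in TRAM2 A against 2.37 to 3.41 TPM in the others; 7.45 TPM of this belonged to a single non-coding entry of 101 bases, and the CPM of ZEB2 in that library, 18.6, was not flagged by the same test. Such a gap is found by chance in about 1 of 20 groups, and 14 sets of values were looked at.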

How the results depend on the processing

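Under the other settings tried, 492 recomputed values kept their direction and side of the threshold or stayed close, 40 counts or levels moved further, 16 changes fell below the threshold, 1 rose above it and 3 reversed. ZEB1, ZEB2 and SNAI2 were called higher in MCF10A-YAP5SA, against control and against MCF10A-TRAM2, in every alternative, and 0 members were called in MCF10A-TRAM2 against control in any, where DESeq2 gave an adjusted p to 2 of 7 only. Causes were not tested.

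Against control, the members called lower in MCF10A-YAP5SA numbered 1 in the first run alone, where SNAI1 was not tested, and 1 in DESeq2 (SNAI1 −1.83); leaving out 1 sample gave 0 to 2, with SNAI1 at −3.37 to −1.05, TCF4 at −1.02 to −0.77 and TWIST2 at −0.12 (without YAP5SA A, reversed) to 0.36. Genes called in MCF10A-TRAM2 against control, 9 in the reported fit, numbered 136 with no filter, 67 over 10 libraries, 25 in the first run, 97 in the second run, 19 in DESeq2 and 3 to 39 with 1 sample left out, 3 without control 2 and 39 without TRAM2 B; SNAI1 ran from −0.71 to 0.05 (without control 1, reversed). Against MCF10A-TRAM2, the members called lower numbered 0 with only the 2 groups (TCF4 −0.63), in the first run (−0.40) and in DESeq2 (−0.63), and 0 to 1 with 1 sample left out, with TCF4 at −0.77 to −0.50, SNAI1 at −2.98 to −0.65 and TWIST2 at −0.44 to 0.04 (without YAP5SA B, reversed).

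With the library letter as a replicate block over 10 libraries, 69 genes were called in MCF10A-TRAM2 against control, and against MCF10A-TRAM2 0 members were called lower (TCF4 −0.51); the letters share only a name, since correlations of deviations ran from −0.031 to 0.035. With 2 control samples and 2 YAP5SA libraries, and 6 SNAI1 counts in MCF10A-YAP5SA, depth and replication limit SNAI1, TCF4 and PRRX1.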
